A study of Mus musculus with 12 samples.

Results

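The 39 genes described here are known from Kupffer cells, the resident macrophages of the liver, and from macrophages and other leukocytes in general. They were chosen by name, each with a probe set annotated to its symbol alone, and made up 39 of the 18193 genes measured. Each was read from its brightest probe set over all arrays. By what is known of where the genes are expressed, 10 were placed as resident Kupffer genes, 17 as pan-myeloid and phagocyte genes, 8 as pan-leukocyte genes and 4 as MHC class II genes. The name of the resident Kupffer class does not make its genes exclusive to Kupffer cells, and some, such as Vsig4 and Cd5l, are known from tissue macrophages. The 39 did not behave as a single block. Most resident Kupffer genes were highest on the same 4 human AHR arrays. Several members were not, among them Timd4, Itgam, Aif1, Lcp1 and the class II genes H2-Aa, H2-Ab1 and H2-Eb1.

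RNA was taken from primary hepatocytes of C57BL6/J wild type mice and of mice of the strain B6.Cg-Ahrtm3.1Bra with the transgene Tg (Alb-cre, Ttr-AHR)1Ghp, called human AHR in the labels. The strain name gives an altered mouse Ahr allele, a Cre recombinase behind the albumin promoter and an AHR transgene behind the transthyretin promoter. Both promoters are best known for their activity in hepatocytes, so the line models a receptor exchange in hepatocytes and not in macrophages. Every culture was held for 48 h in serum-free hepatocyte medium with dexamethasone and dimethyl sulfoxide, and received 10 nM TCDD or dimethyl sulfoxide vehicle for 6 h. The 4 groups of 3 arrays were wild type vehicle, wild type TCDD, human AHR vehicle and human AHR TCDD, and the series' design gives 1 array per mouse. Age and sex of the animals were not given in the sources used here.

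Kupffer cells line the liver sinusoids and clear particles, bacteria and aged red cells from portal blood through scavenger and complement receptors. They live under signals from the CSF1 receptor, and the transcription factor PU.1, encoded by Spi1, drives much of the myeloid programme. MHC class II genes are used by cells that present antigen to T cells and are switched on by the coactivator CIITA through conserved promoter boxes. The aryl hydrocarbon receptor, AHR, is a ligand-activated transcription factor that TCDD, a persistent dioxin, binds and activates.

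Promoters are shown for 4 resident Kupffer genes that shared the array pattern and for both class II genes in the RefSeq promoter table, because these class II genes lacked that pattern. Each is the 250 bases before the RefSeq start on GRCm38.p6, 5′ to 3′ on the gene's strand, and capitals mark GAGGAA, the core of PU.1 sites, or its reverse complement in the first 4.
C1qb, chr4:136886201-136886450, minus strand: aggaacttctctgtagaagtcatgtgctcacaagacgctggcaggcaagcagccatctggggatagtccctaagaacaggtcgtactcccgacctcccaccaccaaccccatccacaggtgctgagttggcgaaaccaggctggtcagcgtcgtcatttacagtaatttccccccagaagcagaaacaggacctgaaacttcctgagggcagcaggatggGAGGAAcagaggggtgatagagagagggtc
C1qc, chr4:136892915-136893164, minus strand: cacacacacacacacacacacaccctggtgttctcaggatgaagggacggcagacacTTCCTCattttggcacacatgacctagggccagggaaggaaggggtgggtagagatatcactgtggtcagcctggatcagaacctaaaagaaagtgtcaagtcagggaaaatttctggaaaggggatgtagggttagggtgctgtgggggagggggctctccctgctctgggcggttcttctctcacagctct
Vsig4, chrX:96293439-96293688, minus strand: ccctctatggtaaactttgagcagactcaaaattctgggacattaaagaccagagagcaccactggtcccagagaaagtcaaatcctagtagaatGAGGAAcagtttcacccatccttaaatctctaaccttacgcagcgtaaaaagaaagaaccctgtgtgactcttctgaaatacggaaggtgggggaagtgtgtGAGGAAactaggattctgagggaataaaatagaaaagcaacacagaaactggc
Cd5l, chr3:87357631-87357880, plus strand: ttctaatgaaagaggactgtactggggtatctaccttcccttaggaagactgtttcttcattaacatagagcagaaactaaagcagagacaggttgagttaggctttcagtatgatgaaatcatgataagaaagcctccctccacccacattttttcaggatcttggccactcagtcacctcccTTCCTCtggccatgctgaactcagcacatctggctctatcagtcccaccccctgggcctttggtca
In the class II promoters, capitals mark CTGATTGG, the core of the Y box.
H2-Aa, chr17:34287824-34288073, minus strand: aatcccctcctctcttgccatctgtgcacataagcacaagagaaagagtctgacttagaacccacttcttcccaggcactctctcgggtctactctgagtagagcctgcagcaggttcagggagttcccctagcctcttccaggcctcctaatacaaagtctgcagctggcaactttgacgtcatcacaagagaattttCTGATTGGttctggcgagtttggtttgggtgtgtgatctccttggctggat
H2-Eb1, chr17:34305617-34305866, plus strand: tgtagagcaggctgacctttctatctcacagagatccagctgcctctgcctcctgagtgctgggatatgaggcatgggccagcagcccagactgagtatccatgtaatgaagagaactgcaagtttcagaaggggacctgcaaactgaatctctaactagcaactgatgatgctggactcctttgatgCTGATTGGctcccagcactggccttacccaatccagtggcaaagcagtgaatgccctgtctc

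The table held promoters of 29 of the 39 genes and named none for Cd14, Spi1, Tyrobp, Cd74, Msr1, C1qa, H2-Ab1, Adgre1, Csf1r and Itgb2. GAGGAA, searched on both strands, stood in 16 of the 29 (55.2%) against 25.9% of all 27025 genes of the table. It lay 30 to 25 bases before the start of C1qb and at 2 places in Vsig4, the nearer 53 to 48 bases before the start. By class it was found in 5 of 8 resident Kupffer, 7 of 12 pan-myeloid, 4 of 7 pan-leukocyte and 0 of 2 class II promoters. The Y box core CTGATTGG was found in both class II promoters, 51 to 44 bases before the start of H2-Aa and 62 to 55 bases before that of H2-Eb1, and in 4.43% of all genes. GCGTG, the core of the element that AHR binds, was present in 2 of the 29 promoters (6.9%), those of Fcgr3 and Fcer1g, against 30.9% of all genes. None of these motifs overlaps another in its letters, and a match is a description of the sequence. C1qb, C1qc and C1qa are neighbours on chromosome 4, and H2-Ab1, H2-Aa and H2-Eb1 are neighbours on chromosome 17.

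Signals below are array intensities, each array rescaled to the same trimmed mean of 150, and log2 values are of the signal plus 16. The median probe set signal of an array lay between 16.5 and 23.5, so a signal of a few units sits in the lower part of an array, and the files carry no detection call. Those extremes were human AHR vehicle replicates 1 and 3, with replicate 2 at 19.8, the same order as most resident Kupffer genes below. In human AHR TCDD the medians of replicates 1, 2 and 3 were 18.5, 19.7 and 19.6. A gene's signal is compared only with itself on other arrays. Arrays of a group correlated at 0.958 to 0.985 over the log2 values of all 18193 genes, each at its brightest probe set. Hepatocyte identity was visible on every array, with Alb and Ttr at no less than 10484 units and a mean log2 level of 9 hepatocyte markers of 11.57 to 11.94. Tiparp, an AHR target, read 1137 ± 248 under vehicle and 2811 ± 444 under TCDD in wild type, and 1357 ± 40.4 and 3542 ± 65.3 in human AHR (SD, n = 3). Ahr read 374 ± 210.1 in wild type vehicle and 217 ± 22.2 in human AHR vehicle. By replicate it read 261, 617 and 245 in wild type vehicle and 224, 193 and 236 in human AHR vehicle. Wild type replicate 2 thus carried most of that gap. Both wild type replicate 2 arrays stood apart from all others by Xist, at 3085 and 2952 against at most 29.3, and by the Y-linked Eif2s3y, at 4.7 and 0.42 against at least 453. No gene among the 39 was called in any comparison without these 2 arrays.

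The resident Kupffer genes were high on replicates 2 and 3 of human AHR, under vehicle and under TCDD alike, and low on human AHR replicate 1 and in wild type. Their mean log2 level was 4.28, 4.46 and 4.94 in wild type vehicle, 4.44, 4.64 and 4.59 in wild type TCDD, 4.71, 6.21 and 6.70 in human AHR vehicle and 4.83, 6.03 and 6.69 in human AHR TCDD, for replicates 1, 2 and 3. The summed signal of the 10 genes ran from 40.4 to 203 over the 6 wild type arrays. It was 125 and 151 on the human AHR replicate 1 arrays, 774 and 663 on the replicate 2 arrays, and 1200 and 1140 on the replicate 3 arrays. In such bulk samples, more macrophages and more RNA per macrophage cannot be told apart.

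**Figure D1:**
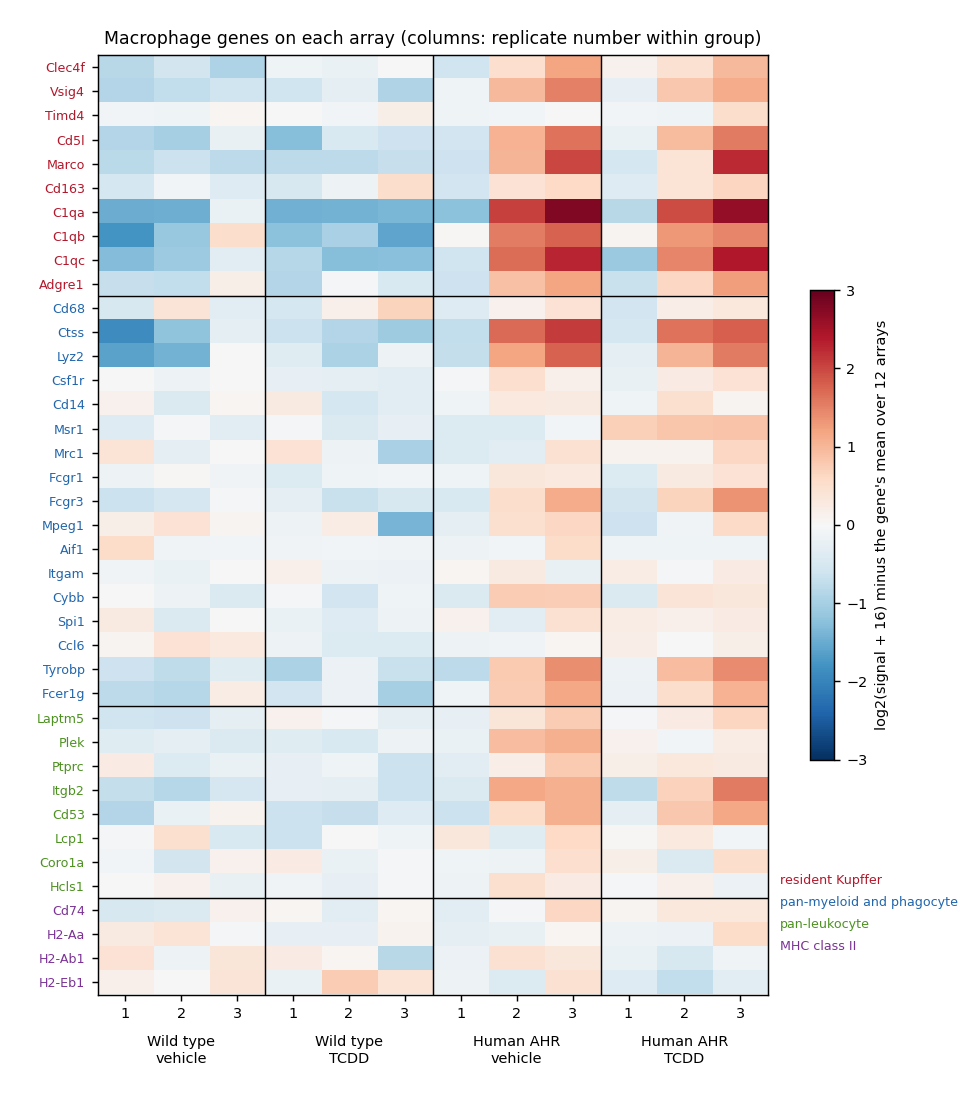
Each row is a gene and each column an array, ordered by group and by replicate number, and colour is log2(signal + 16) minus the gene's mean over the 12 arrays. The red block of the resident Kupffer rows lies on human AHR replicates 2 and 3, in 27 of 39 rows replicate 3 is the highest of its 3 arrays under both treatments, and the H2-Aa, H2-Ab1 and H2-Eb1 rows show no such block.

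C1qa, C1qb and C1qc encode the chains of C1q, the recognition molecule of the classical complement pathway, made in liver mostly by macrophages. C1qa read 0.90, 1.4 and 25.8 in wild type vehicle, 1.59, 1.95 and 2.46 in wild type TCDD, 4.2, 183 and 312 in human AHR vehicle, and 10.8, 169.7 and 281 in human AHR TCDD, in the order of replicates 1, 2 and 3 used throughout. C1qb read 2.1, 12.7 and 75.0 in wild type vehicle, 10.8, 15.9 and 5.01 in wild type TCDD, 48.1, 165 and 198 in human AHR vehicle, and 50.5, 137 and 156 in human AHR TCDD. C1qc read 0.70, 3.4 and 16.9, then 6.6, 0.87 and 1.14, then 11.4, 116 and 183, and last 3.0, 98.3 and 204 in the same 4 groups. All 3 chains were highest on human AHR replicate 3 and next on replicate 2, in both treatments. Human AHR replicate 1 overlapped wild type vehicle for all 3 at wild type vehicle replicate 3, which was above its partners. Under TCDD, C1qa and C1qb did not overlap between the genotypes, while C1qc did.

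Vsig4 is a complement receptor of tissue macrophages, and Marco is a scavenger receptor with a collagenous stalk. Vsig4 read 2.5, 4.2 and 6.3 in wild type vehicle, 6.21, 11.5 and 2.07 in wild type TCDD, 14.8, 50.8 and 81.3 in human AHR vehicle, and 12.5, 43.7 and 57.1 in human AHR TCDD. Marco read 0.90, 2.8 and 1.2 in wild type vehicle, 1.17, 1.02 and 2.28 in wild type TCDD, 3.1, 43.4 and 102 in human AHR vehicle, and 4.5, 23.4 and 122 in human AHR TCDD. These were the only members whose 6 human AHR arrays all lay above their 6 wild type arrays, against 0.187% of all genes, and no member had all 6 below (0.231% of all genes). For Marco the margin was small: human AHR replicate 1 under vehicle read 3.1 against 2.8 for the highest wild type array. The other Marco set overlapped, at 2.4 and 2.0 on human AHR replicate 1 and up to 6.1 in wild type. For Vsig4 the margin was small too, 12.5 on human AHR TCDD replicate 1 against 11.5 on wild type TCDD replicate 2.

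Cd5l encodes a secreted protein of tissue macrophages that binds lipids, and Adgre1 encodes the F4/80 antigen. Cd5l read 8.9, 6.9 and 23 in wild type vehicle, 2.67, 17.1 and 13.4 in wild type TCDD, 14.8, 77.9 and 125 in human AHR vehicle, and 23.9, 72.1 and 119 in human AHR TCDD. Adgre1 read 18.8, 17.7 and 46.9, then 14.2, 38.2 and 24.4, then 20, 86.4 and 111, and last 19.4, 69.3 and 116 in these groups. Clec4f, a lectin found in the mouse almost solely on Kupffer cells, read 4.1, 8.4 and 2.7 in wild type vehicle, 16.4, 15.2 and 19.4 in wild type TCDD, 7.6, 34.7 and 64.9 in human AHR vehicle, and 23.3, 32.6 and 53.6 in human AHR TCDD. Cd5l and Adgre1 overlapped between genotypes on human AHR replicate 1 under vehicle. Clec4f did so as well, and was the resident gene whose 3 wild type TCDD arrays all lay above the wild type vehicle arrays.

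Cd163 is the receptor for haptoglobin bound to haemoglobin, and Timd4 binds phosphatidylserine on dying cells. Cd163 read 0.60, 6.7 and 2.4 in wild type vehicle, 1.29, 5.64 and 18.5 in wild type TCDD, 0.30, 16.4 and 20.3 in human AHR vehicle, and 2.3, 15.9 and 21.9 in human AHR TCDD. Timd4 read 0.90, 0.40 and 2.9, then 1.8, 1.11 and 4.44, then 0.40, 0.90 and 1.8, and last 1.1, 0.40 and 10.2. Timd4 stayed under every array's median, was highest on replicate 3 in each of the 4 groups, and overlapped between all groups. The groups of Cd163 overlapped throughout, though 4 of its 5 highest arrays were human AHR replicates 2 and 3.

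**Figure D2:**
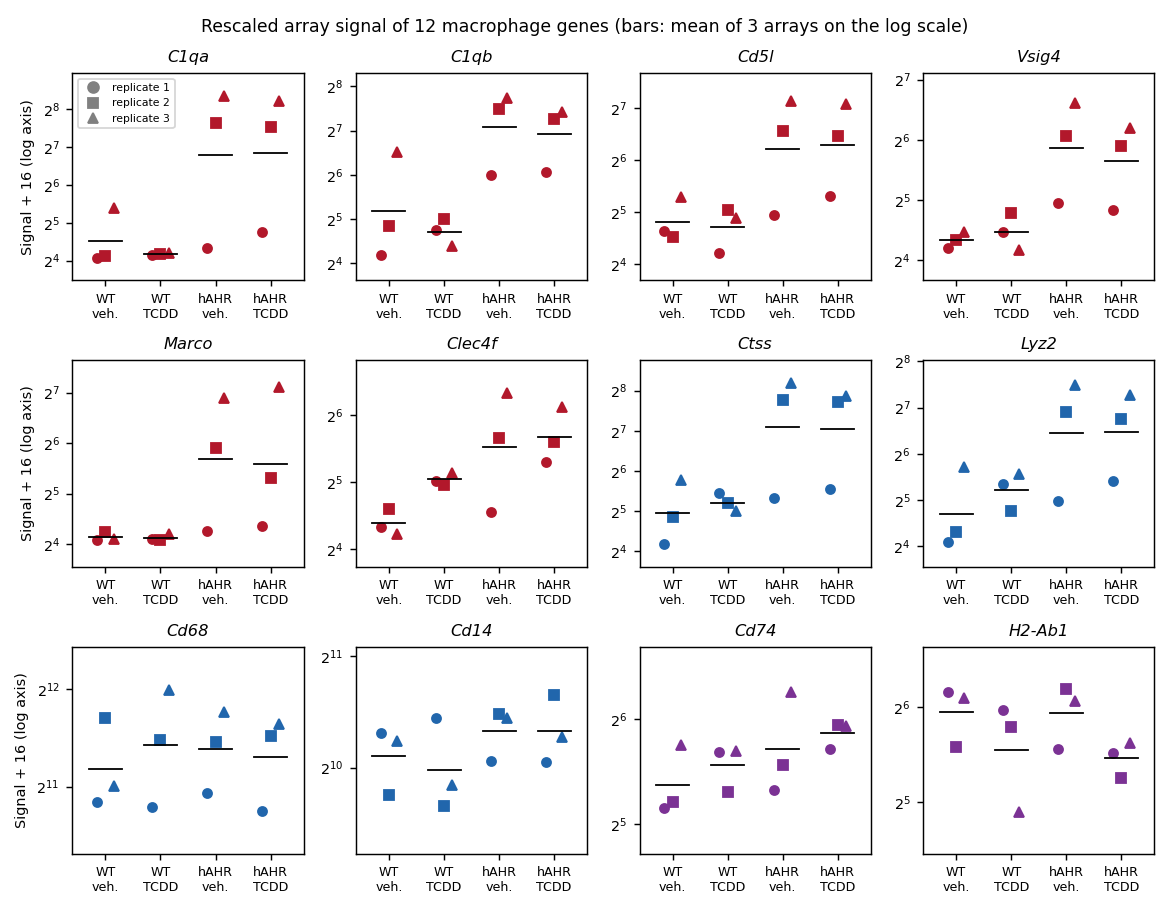
Each panel is a gene, with signal plus 16 on a log axis for the 4 groups; circles, squares and triangles are replicates 1, 2 and 3, and bars are group means on the log scale (n = 3). For C1qa, C1qb, Cd5l, Vsig4, Marco, Clec4f, Ctss and Lyz2 the human AHR squares and triangles stand above every wild type point, and for Cd68, Cd14, Cd74 and H2-Ab1 some of them lie among the wild type points.

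Genotype was compared with limma over all 18193 genes, with p-values adjusted by Benjamini-Hochberg over all of them. In the mean of both treatments no member passed the adjusted threshold of 0.05, where 0.022% of all genes did. Unadjusted p was under 0.05 with the higher level in human AHR for 20 of the 39 members (2.65% of all genes), and with the lower level for 1, H2-Eb1 (2.68% of all genes). Of the 20, 8 were resident Kupffer, 7 pan-myeloid and 5 pan-leukocyte genes. Since the members were chosen with results of these arrays known, these counts describe them and test nothing about the list. The members' median difference was 0.44 with 35 of 39 above 0, beside 0.006 and 51.7% for all genes. By class, the median was 1.42 in the resident Kupffer genes (10 of 10 above 0), 0.51 in the pan-leukocyte genes (8 of 8), 0.30 in the pan-myeloid genes (16 of 17) and -0.06 in class II (1 of 4).

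C1qb had the smallest adjusted p in that comparison, with a log2 difference of 2.05 ± 0.41 (SE; 95% interval 1.18 to 2.93; adjusted p 0.274), a 4.15-fold difference on the scale of signal plus 16. With the replicate number within genotype as a random block, its adjusted p was 0.61, also the smallest of the 39. C1qa differed by 2.46 ± 0.67 (interval 1.01 to 3.90; adjusted p 0.554), the highest point estimate among the 39. Vsig4 differed by 1.35 ± 0.28 (interval 0.73 to 1.96; adjusted p 0.36). The log2 difference was 2.04 for C1qc, 1.50 for Marco, 1.48 for Cd5l, 0.88 for Clec4f and 0.87 for Adgre1, with adjusted p from 0.467 to 0.925. It was 0.37 for Cd163 and 0.03 for Timd4. The spread lay mostly inside the human AHR groups. Taken within groups, the median SD of the resident genes was 0.96 among human AHR vehicle arrays and 0.82 among human AHR TCDD arrays, against 0.32 and 0.27 in wild type. Over all genes these medians were 0.21, 0.21, 0.21 and 0.27 in the same order.

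**Figure D3:**
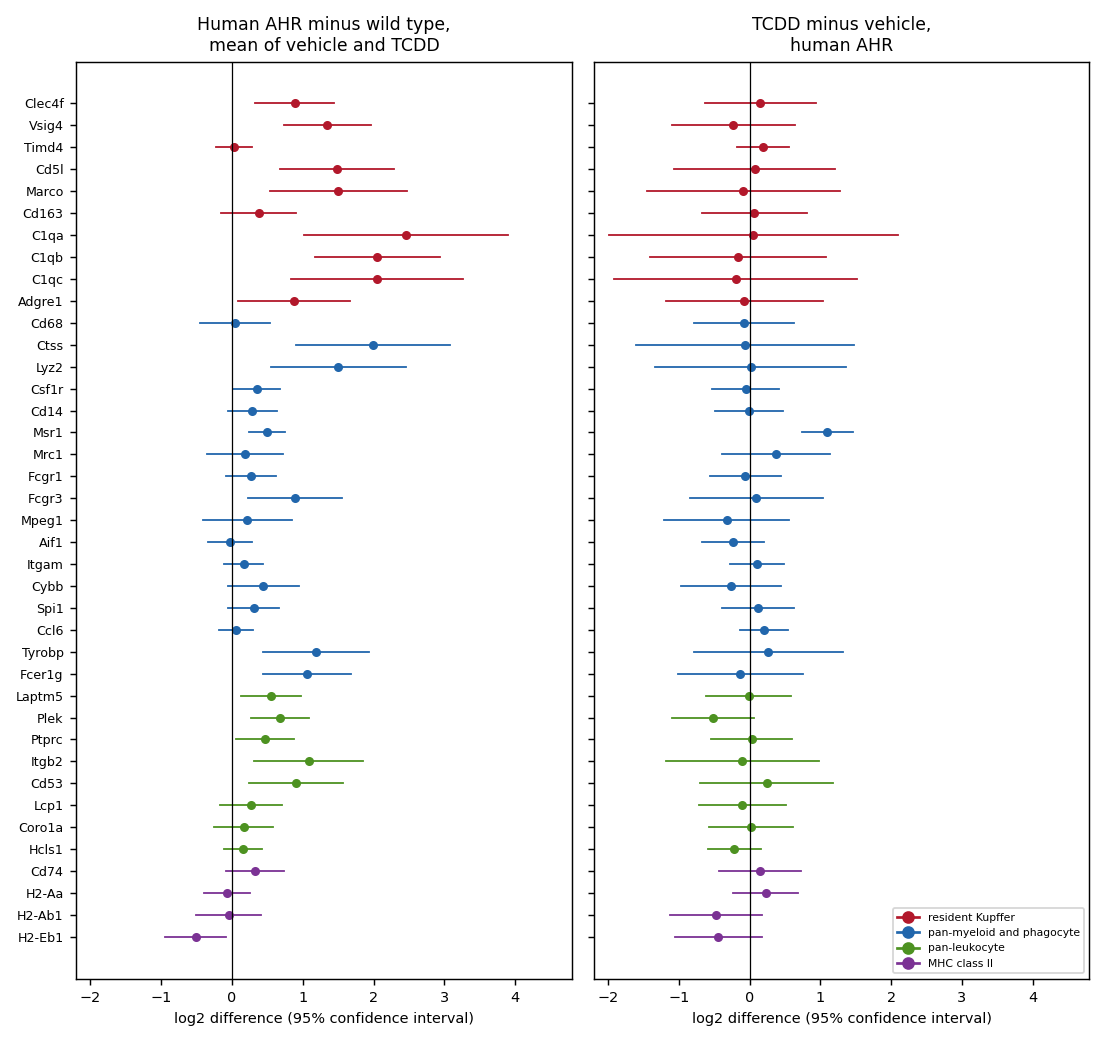
Points are limma log2 differences and lines their 95% confidence intervals (12 arrays, 3 per group), for human AHR minus wild type on the left and TCDD minus vehicle in human AHR on the right, with genes coloured by class. Resident Kupffer points run from 0.03 for Timd4 to 2.46 for C1qa on the left and stay between -0.23 and 0.19 on the right, where Msr1 at 1.10 is the point farthest from 0.

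Taken by treatment, no member was called under vehicle (0.0055% of all genes called), and 13 had an unadjusted p under 0.05 with the higher level in human AHR (2.63% of all genes), while 1, Ccl6, had it with the lower level (1.6%). Human AHR and wild type arrays did not overlap, with human AHR higher, for Vsig4, Marco, Laptm5, Plek and Itgb2, which is 5 of 39 against 6.27% of all genes, and with human AHR lower for Ccl6 (1 of 39 against 4.41%). Under TCDD no member was called, nor was any gene measured (0%), and 14 members had such a p with the higher level in human AHR (1.61% of all genes) and 1, H2-Eb1, with the lower (2.5%). Arrays did not overlap for 16 members with human AHR higher, against 3.23% of all genes, and for Aif1 and H2-Eb1 with human AHR lower, which is 2 against 4.86%. The median difference of the 39 was 0.35 under vehicle (31 above 0; 55.1% of all genes) and 0.46 under TCDD (35 above 0; 47.6%). Leaving out the human AHR vehicle replicate 1 array, the lowest of its group for 33 members, brought a call for Plek under vehicle (adjusted p 0.0451) and in the mean of both treatments (adjusted p 0.0215). Without both human AHR replicate 1 arrays, a choice made after they were seen to be low and which raises the difference by construction, limma called 5 members under vehicle, 2 under TCDD and 14 in the mean of both treatments.

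Among the pan-myeloid and phagocyte genes, Ctss, Lyz2, Tyrobp, Fcer1g and Fcgr3 were likewise highest on human AHR replicates 2 and 3. Over the 12 arrays these genes correlated with the mean of the resident genes at 0.94 to 0.978. In the resident class that value was 0.991 for C1qa, 0.869 for Clec4f and 0.397 for Timd4. Other pan-myeloid genes were lower, such as Cd68 at 0.455 and Aif1 at 0.142. The pattern was thus not particular to the resident class. Ctss, a cysteine protease that trims the class II invariant chain, read 2.3, 13.1 and 38.7 in wild type vehicle, 27.4, 20.8 and 16 in wild type TCDD, 24.4, 203 and 274 in human AHR vehicle, and 30.5, 192 and 218 in human AHR TCDD. Lyz2, the lysozyme of macrophages, read 1.2, 3.7 and 36.2, then 25.0, 11.2 and 31.1, then 15.8, 104 and 162, and last 26.6, 91.2 and 138. Human AHR replicate 1 stood at the wild type level for both genes under vehicle. Their genotype differences were 1.99 ± 0.50 for Ctss (SE; adjusted p 0.470) and 1.50 ± 0.44 for Lyz2 (adjusted p 0.652) in the mean of both treatments by limma.

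Tyrobp and Fcer1g are signalling adaptors of myeloid receptors and of Fc receptors. Tyrobp read 7.1, 4.9 and 11.5 in wild type vehicle, 2.43, 15.4 and 6.33 in wild type TCDD, 4.6, 44.9 and 77.6 in human AHR vehicle, and 16.1, 51.4 and 78.5 in human AHR TCDD. Fcer1g read 12.8, 11.5 and 42.5, then 17.4, 28.1 and 9.09, then 29.6, 68.2 and 95.6, and last 28.0, 55.6 and 86.8. Under TCDD the Tyrobp arrays of the genotypes did not overlap, and those of Fcer1g overlapped narrowly at human AHR replicate 1. Fcgr3, an Fc receptor that signals through Fcer1g, ran from 0.57 to 9.6 in wild type, read 3.3 and 2.1 on the human AHR replicate 1 arrays, and 22.0 to 51.5 on the other 4 human AHR arrays. The genotype difference was 1.19 ± 0.35 for Tyrobp, 1.06 ± 0.29 for Fcer1g and 0.89 ± 0.31 for Fcgr3 (SE, limma, adjusted p 0.560 to 0.824).

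Csf1r, the receptor on which Kupffer cells depend, showed how much a reading can hang on the probe set. Its brightest set read 63.7, 57 and 63.3 in wild type vehicle, 51.6, 50 and 48.3 in wild type TCDD, 61.7, 98.9 and 73.0 in human AHR vehicle, and 52.5, 79.8 and 91.9 in human AHR TCDD. That set differed between genotypes by 0.35 ± 0.15 (SE; limma adjusted p 0.925), and the other 2 sets by 1.16 and 1.13. A further set ran from 20.8 to 49.5 in wild type and read 127 and 195 on human AHR vehicle replicates 2 and 3. Cybb, the catalytic chain of the phagocyte oxidase, differed by 0.44 at its brightest set and by 1.11 and 0.69 at the others. C1qb differed by 2.05, 2.48 and 2.07 at its 3 sets, and Marco by 1.50 and 0.73. Over the 15 members with several sets, 21 of the 28 sets not used had the sign of the set used in this comparison.

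Cd68, a lysosomal glycoprotein used to stain macrophages, and Cd14, the lipopolysaccharide coreceptor, were bright on every array. Cd68 read 1822, 3315 and 2039 in wild type vehicle, 1763, 2837 and 4041 in wild type TCDD, 1939.6, 2798 and 3451 in human AHR vehicle, and 1712, 2904 and 3183 in human AHR TCDD. Cd14 read 1254, 849 and 1192, then 1379.8, 791 and 905, then 1053, 1417 and 1379, and last 1045, 1596 and 1220.2. All 4 groups overlapped for both genes. The genotype difference was 0.04 (95% interval -0.46 to 0.54) for Cd68 and 0.29 (-0.06 to 0.63) for Cd14, so a difference as large as that of C1qb lay outside both intervals. Human AHR replicate 1 was the lowest of its group for both genes in both treatments, as it was for 9 of the 10 resident genes. It was so for Alb and Ttr as well, and for 17.7% of all genes.

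Mpeg1, a pore-forming protein of phagosomes, read 48.0, 60.2 and 44.1 in wild type vehicle, 35.3, 50.1 and 5.49 in wild type TCDD, 30.4, 63.1 and 71.2 in human AHR vehicle, and 20.9, 36.7 and 68.3 in human AHR TCDD. Wild type TCDD replicate 3 stood apart from the other 11 arrays, and the groups overlapped. The remaining pan-myeloid genes were dim. Signals ran from 5.25 to 48.1 for the mannose receptor Mrc1, 5.5 to 22.8 for the high-affinity Fc receptor Fcgr1, 5.3 to 14 for the integrin chain Itgam, 10.6 to 33.6 for Spi1, 5.16 to 37.5 for Cybb and 0.80 to 11.6 for the actin-binding Aif1. Of these 6, Fcgr1 and Cybb had human AHR replicates 2 and 3 as their 4 highest arrays at their brightest sets. Fcgr1 read 20.2, 19.1, 18.7 and 22.8 on them against at most 13.5 elsewhere, and Aif1 had a difference of -0.03 between genotypes.

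Of the 8 pan-leukocyte genes, Itgb2, Cd53 and Laptm5 had human AHR replicates 2 and 3 as their 4 highest arrays at their brightest sets. Itgb2, the beta chain of leukocyte integrins, read 2.0, 0.40 and 4.9 in wild type vehicle, 8.76, 8.22 and 2.82 in wild type TCDD, 5.7, 49.7 and 45.9 in human AHR vehicle, and 1.3, 31.6 and 70.9 in human AHR TCDD. Cd53, a tetraspanin of leukocytes, read 1.3, 11.4 and 18.3, then 4.41, 3.57 and 8.07, then 4.2, 30.7 and 50.7, and last 10.3, 39.5 and 55.2. On human AHR replicate 1 both stayed in the wild type range. The other Cd53 set did not show this pattern. It read 8.6 and 1.3 on human AHR vehicle replicates 2 and 3, and 2.0 and 8.2 under TCDD, against up to 13.2 in wild type. The log2 difference was 1.08 ± 0.36 for Itgb2 and 0.90 ± 0.31 for Cd53 (SE; limma adjusted p 0.763 and 0.815).

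Laptm5 is a lysosomal membrane protein of leukocytes, Plek a substrate of protein kinase C, and Ptprc the CD45 phosphatase. Laptm5 read 14.2, 13.9 and 22.3 in wild type vehicle, 34.6, 28.9 and 21.7 in wild type TCDD, 22.5, 42.7 and 61.5 in human AHR vehicle, and 28.1, 38.1 and 55.4 in human AHR TCDD. Plek read 2.1, 3.4 and 1.4, then 2.25, 1.2 and 5.1, then 4.4, 28.6 and 33.5, and last 9.5, 6.0 and 11.2. Ptprc read 14.6, 3.5 and 6.5, then 6.03, 7.74 and 0.45, then 4.7, 13.8 and 28.5, and last 13.1, 16.1 and 15.1. At its brightest set, Plek was high on 2 vehicle arrays of human AHR and not on the TCDD arrays of the same numbers, unlike the resident genes. Another Plek set did not show this, at 3.6, 5.9 and 15.2 in human AHR vehicle and 9.8, 12.3 and 16.4 in human AHR TCDD. A further set read 6.2, 5.5 and 17.7, then 9.1, 4.9 and 9.0 in these groups. At the brightest sets, the genotypes did not overlap for Laptm5 under vehicle, for Plek under either treatment, or for Ptprc under TCDD. A second Laptm5 set also had human AHR replicates 2 and 3 highest, at 30.5 and 41.2 under vehicle and 23.5 and 27.0 under TCDD. The remaining Laptm5 sets did not, as wild type TCDD arrays reached 44.9, 28.35 and 32.1 on them.

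Lcp1, an actin-bundling protein, read 123, 188 and 89.2 in wild type vehicle, 77.4, 129.9 and 117 in wild type TCDD, 167, 96.1 and 202 in human AHR vehicle, and 133, 163 and 120.3 in human AHR TCDD. No group stood apart, and its genotype difference was 0.26 (95% interval -0.17 to 0.70). Coro1a, another actin regulator, ran from 0.50 to 19.3, and Hcls1, a substrate of leukocyte tyrosine kinases, from 0.60 to 11.3. All groups overlapped for both genes at these sets. Another Coro1a set was highest on human AHR replicates 2 and 3, at 15.7 and 22.8 under vehicle and 15.4 and 24.1 under TCDD. In wild type that set read at most 8.2. A further Coro1a set read at most 5.2 on any array.

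Of the MHC class II genes, Cd74 followed the resident Kupffer genes in part, and H2-Ab1, H2-Eb1 and H2-Aa did not. Cd74, the invariant chain, read 19.5, 20.9 and 37.9 in wild type vehicle, 35.6, 23.5 and 35.8 in wild type TCDD, 24.0, 31.4 and 60.5 in human AHR vehicle, and 36.5, 45.8 and 45.4 in human AHR TCDD. H2-Ab1, a beta chain, read 55.7, 31.7 and 52.3, then 46.9, 39.2 and 13.8, then 31.1, 57.1 and 51.1, and last 29.9, 22.1 and 33.3. Cd74 was highest on human AHR replicates 2 and 3 apart from vehicle replicate 2, which lay in the wild type range, and its human AHR TCDD arrays were all above the wild type TCDD arrays. H2-Ab1 overlapped in every comparison.

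H2-Eb1, a further beta chain, read 24.5, 20.3 and 31.5 in wild type vehicle, 15.4, 45.6 and 32.3 in wild type TCDD, 16.5, 11.1 and 33.8 in human AHR vehicle, and 11.7, 5.6 and 13.1 in human AHR TCDD. H2-Aa, an alpha chain, read 10.0, 12.6 and 5.0, then 2.16, 2.19 and 7.26, then 2.0, 2.4 and 6.4, and last 3.4, 3.2 and 15.8. H2-Eb1 had the lowest genotype difference of the 39, -0.52 ± 0.20 (SE; 95% interval -0.95 to -0.08; limma adjusted p 0.921), and under TCDD its arrays did not overlap. The differences were 0.33 for Cd74, -0.05 for H2-Ab1 and -0.07 for H2-Aa. A second H2-Aa set differed by 0.50 and read 22.7 and 23.2 on the human AHR replicate 3 arrays, against at most 7.5 elsewhere.

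TCDD against vehicle gave no call among the 39 in either genotype by limma. In wild type, 0.0055% of all genes were called, no member had an unadjusted p under 0.05 with the higher level under TCDD (3% of all genes), and 1 had it with the lower level (1.19%). In human AHR, 0.022% of all genes were called, 1 member had such a p with the higher level (1.42%) and none with the lower (1.48%). The median difference of the 39 was -0.09 in wild type (15 above 0; 55.7% of all genes) and -0.01 in human AHR (18 above 0; 46.9%). TCDD and vehicle arrays did not overlap in wild type for Clec4f with TCDD higher (1 of 39 against 6.18% of all genes) and for Csf1r and Ccl6 with TCDD lower (2 of 39 against 2.82%), and in human AHR for Msr1 with TCDD higher (1 of 39 against 3.34%) and for none lower (3.87%). In the resident Kupffer genes the median was -0.03 (4 of 10 above 0) and -0.01 (5 of 10). No member was called in the mean of both genotypes either, where 0.022% of all genes were and the median of the 39 was -0.05 (15 above 0; 51.9% of all genes). That comparison had 1 member with an unadjusted p under 0.05 and the higher level, Msr1 (2.17% of all genes), and none with the lower level (1.38%). The 6 TCDD arrays did not clear the 6 vehicle arrays for any member in either direction (0.121% of all genes higher, 0.022% lower).

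The TCDD effect in human AHR was 0.05 for C1qa (95% interval -1.99 to 2.10), -0.17 for C1qb (-1.41 to 1.08), -0.23 for Vsig4 (-1.10 to 0.64) and 0.07 for Cd5l (-1.07 to 1.21). Each interval spans both directions. Same-numbered arrays differed by less than these intervals allow: TCDD minus vehicle was 0.41, -0.10 and -0.15 for C1qa, 0.05, -0.24 and -0.32 for C1qb, and -0.11, -0.16 and -0.41 for Vsig4 in replicates 1, 2 and 3. Human AHR arrays of the same number deviated together from their group means. Over all genes other than the 39, those deviations correlated at 0.179 to 0.264 for same numbers and at -0.186 to -0.023 for different numbers. Over the 39 they correlated at 0.626 to 0.909 for same numbers and at -0.826 to 0.633 for different numbers. Over the 39, vehicle replicate 2 gave 0.633 with TCDD replicate 3 and 0.626 with TCDD replicate 2. In wild type the same-number values were 0.0483 to 0.508 over the other genes and -0.105 to 0.204 over the 39. The different-number values there were -0.46 to 0.283 and -0.361 to 0.368. Deviations from a group mean sum to 0, so positive same-number values go with negative ones elsewhere. The genes of a set are not independent replicates.

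**Figure D4:**
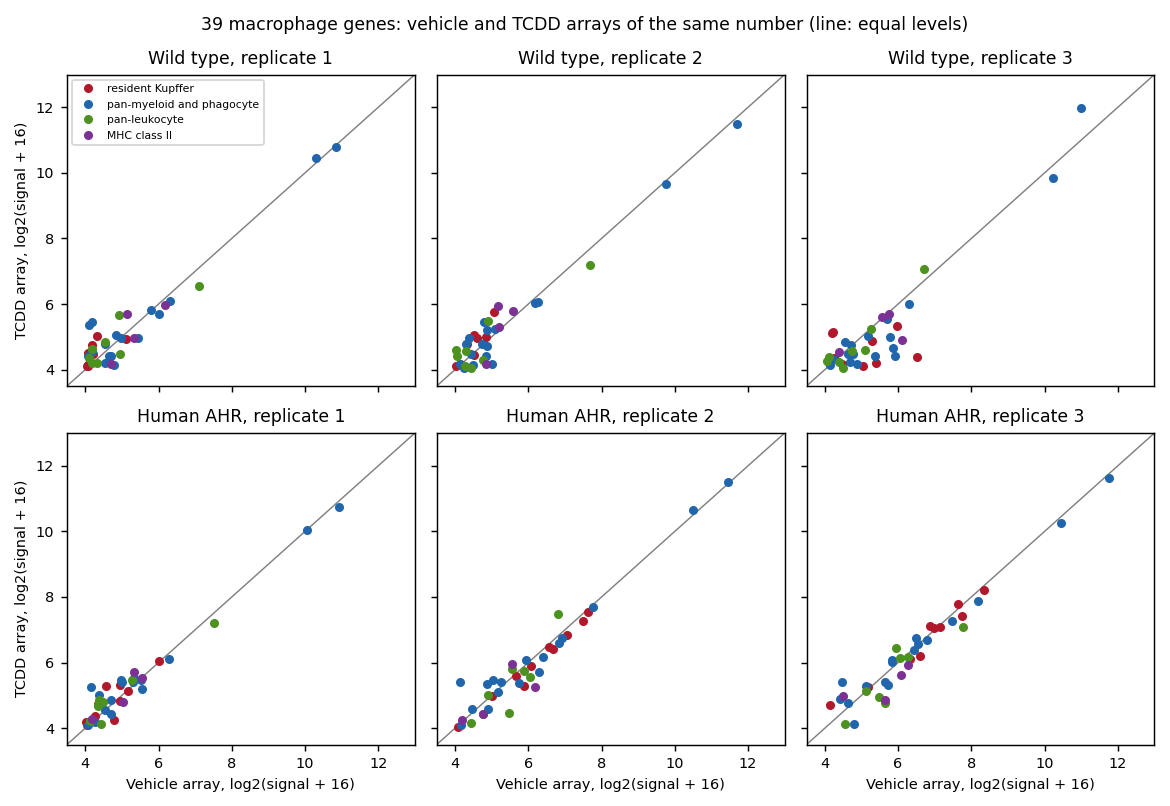
Each panel sets the vehicle array against the TCDD array of the same number and genotype, as log2(signal + 16) of the 39 genes, with a line of equal levels. In human AHR replicates 2 and 3 the resident Kupffer genes lie along the line at higher levels, while in human AHR replicate 1 and wild type they gather near the lower end.

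Human AHR replicate 1 was the lowest of its 3 arrays under vehicle and again under TCDD in 27 of 39 members, against 17.7% of all genes. Replicate 3 was the highest under both in 27 of 39, against 18.3%. By class, replicate 1 was lowest in both for 9 of 10 resident Kupffer genes, 13 of 17 pan-myeloid, 4 of 8 pan-leukocyte and 1 of 4 class II genes. Replicate 3 was highest in both for 10 of 10, 11 of 17, 4 of 8 and 2 of 4. No wild type number held an extreme position in both treatments for more than 5 of the 39. The replicate numbers were singled out after these arrays had been seen, so the shares describe them.

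Msr1, a class A scavenger receptor, was the member nearest a TCDD call. It read 2.2, 6.6 and 2.7 in wild type vehicle, 7.08, 1.56 and 3.87 in wild type TCDD, 1.9, 1.7 and 6.3 in human AHR vehicle, and 22.5, 26.2 and 26.7 in human AHR TCDD. The 3 human AHR TCDD arrays lay above the other 9, with human AHR replicate 1 as high as its partners. The TCDD effect was 1.10 ± 0.17 in human AHR (SE; 95% interval 0.74 to 1.46; limma adjusted p 0.0654) and 0.02 in wild type, and their difference was 1.08 ± 0.24 (adjusted p 0.998). With the replicate number as a block, the adjusted p in human AHR was 0.34. The other 3 Msr1 probe sets gave -0.11, -0.13 and -0.19, and none read above 17.2 on any array.

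Ccl6, a chemokine of myeloid cells, read 9.2, 16.1 and 13.3 in wild type vehicle, 5.34, 1.95 and 1.89 in wild type TCDD, 5.4, 6.1 and 8.7 in human AHR vehicle, and 11.2, 8.1 and 11.0 in human AHR TCDD. At this set every wild type TCDD array was below every wild type vehicle array, and human AHR vehicle was below wild type vehicle too. The second probe set reversed the vehicle difference, at 5.1, 13.7 and 23.8 in human AHR and 4.3, 2.3 and 2.2 in wild type. The TCDD effect in wild type was -0.60 ± 0.16 (SE; limma adjusted p 0.966), its second probe set gave 0.11, and the difference of the effects was 0.80 ± 0.22 (adjusted p 0.998). No member was called for the difference of TCDD effects by limma (0% of all genes). In it 2 members, Msr1 and Ccl6, had an unadjusted p under 0.05 with the more positive effect in human AHR (0.934% of all genes). None had it with the more negative effect there (2.21%). The median of that difference was 0.04 over the 39 (20 above 0; 44.1% of all genes).

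Companion lists of genes outside the 39, also chosen with earlier results known, showed how far the pattern reached. Of 23 further macrophage identity genes measured, 15 were above 0 in the genotype comparison over both treatments, with a median of 0.12, and none was called. Slc11a1, a metal transporter of the phagosome, read 27.2, 20.5 and 33.3 in wild type vehicle, 20.7, 19.7 and 14.5 in wild type TCDD, 23.6, 77.8 and 96.7 in human AHR vehicle, and 27.5, 70.0 and 123 in human AHR TCDD, the pattern of the resident genes. Cd300a, an inhibitory receptor, differed by 1.08 under vehicle (adjusted p 0.965), and Csf3r, the receptor of granulocyte colony-stimulating factor, by 0.59 over both treatments (adjusted p 0.899). Trem2, a lipid receptor of macrophages, had TCDD effects in opposite directions. Its mean signal was 3.0 under vehicle and 21.0 under TCDD in wild type, and 21.1 and 6.5 in human AHR. The difference of the effects, human AHR minus wild type, was -1.58 (limma adjusted p 0.998).

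Of 11 further class II pathway genes, 8 were above 0 with a median of 0.03, and Ciita differed by -0.24. The 9 class I pathway genes had 5 above 0 and a median of 0.08, the 8 genes of the CSF1 axis had 7 above 0 and a median of 0.13, and the 17 cytokines and inflammatory products had 9 above 0 and a median near 0. Ccl3, a macrophage chemokine, differed by 0.92 under vehicle, where human AHR read 7.8, 21.0 and 22.1 and wild type at most 1.2 (limma adjusted p 0.965). No gene of these lists was called in any of the 7 comparisons.

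Markers of other liver cell types had smaller median genotype differences than the 1.42 of the resident genes, which were chosen with earlier results known. The 23 further macrophage identity genes, with a median of 0.12, were also below 1.42 and lay within the range of these markers. Over both treatments, the counts above 0 and medians were 11 of 15 and 0.09 for endothelial, 10 of 15 and 0.09 for stellate and fibroblast, 4 of 5 and 0.16 for cholangiocyte, 5 of 8 and 0.06 for dendritic cell, 5 of 11 and -0.05 for T and NK cell, 3 of 7 and -0.01 for B cell, 3 of 10 and -0.06 for granulocyte, and 5 of 9 and 0.08 for hepatocyte markers. The mean log2 level of the endothelial markers was 5.29 to 5.46 over the wild type arrays, 5.84 and 5.68 on the human AHR replicate 3 arrays, and 5.37 and 5.30 on the replicate 2 arrays. Replicate 2 thus had endothelial markers at the wild type level with resident Kupffer genes high. Summed endothelial signals ran from 430 to 691 in wild type and from 456 to 835 in human AHR. The stellate markers were highest on the same 4 arrays as the resident genes, with mean log2 levels of 4.98 and 5.12 under vehicle and 5.00 and 4.96 under TCDD on human AHR replicates 2 and 3, against 4.74 and 4.78 on replicate 1 and 4.72 to 4.91 in wild type. The part of these cell types in the members' differences was not tested.

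**Figure D5:**
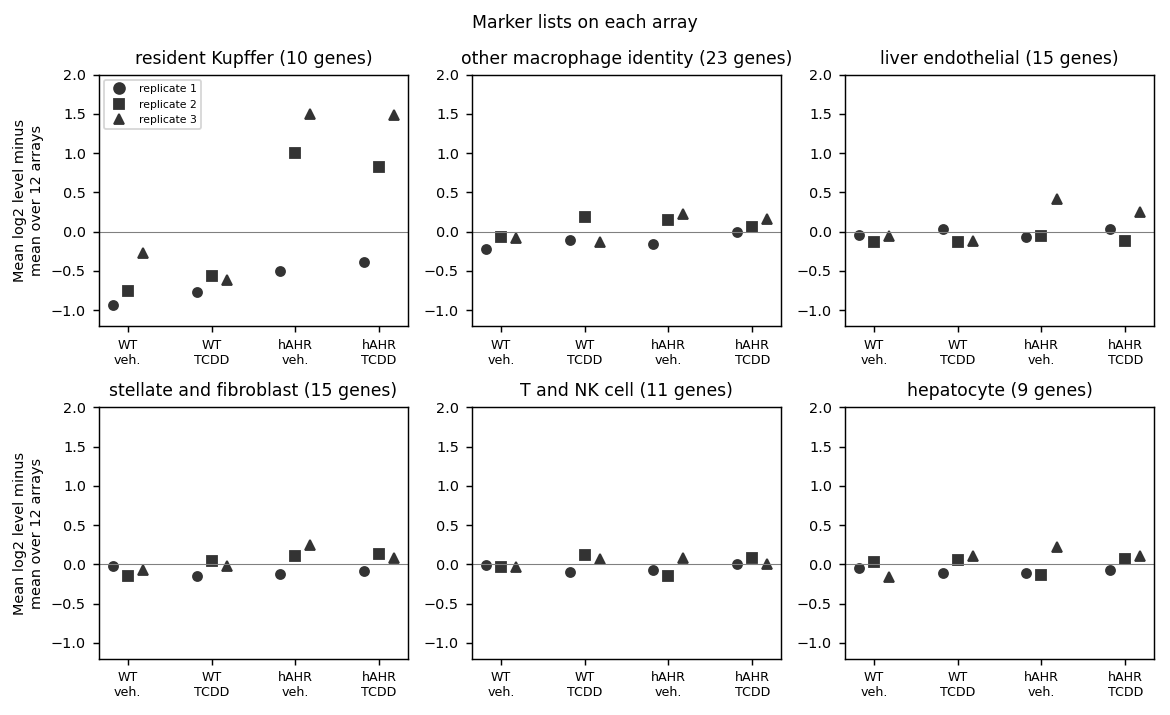
Each panel is a marker list, with the mean log2 level of its genes on each array minus that list's mean over the 12 arrays; circles, squares and triangles are replicates 1, 2 and 3. The resident Kupffer list is high on human AHR replicates 2 and 3 and low on the other 8 arrays, and the endothelial list departs most on human AHR replicate 3.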

How the data were processed

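RNA of 12 hepatocyte cultures was measured on Affymetrix arrays of 45101 probe sets. The authors deposited linear intensity values; per the submitters' processing notes and the series' design text they used PLIER in Affymetrix Expression Console 1.1. The 2% trimmed mean of the deposited values was 150 on 9 arrays and 500 on the 3 wild type TCDD arrays, a round shared mean that global scaling gives and PLIER does not, so the named method and the values are at odds. Each array was rescaled to 150. Whether the wild type TCDD arrays differed in other processing cannot be told apart from their group.

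Of the probe sets, 64 were controls, 34945 had 1 gene symbol, 932 had several and 9160 were not listed in the platform annotation used. The brightest single-symbol set stood for a gene (18193 genes). limma 3.58.1 in R 4.3.3 fitted group means to log2(intensity + 16) over all 12 arrays (8 residual degrees of freedom, intensity trend, two-sided, Benjamini-Hochberg over all genes, threshold 0.05) in 7 comparisons: TCDD in each genotype, genotype under each treatment, the difference of TCDD effects and both averages. The offset understates changes of dim genes. p-values treat the 12 arrays as independent, as 1 array per mouse in the series' design implies, and 3 arrays per group limit the precision. The fit was tested on simulated data.

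Same-numbered human AHR arrays deviated together (correlations above 0.1 for every number, from the values and not from a stated pairing; whether a number marks a shared mouse or isolation was not given in the sources used here), and wild type ones did not for every number. The members and lists were chosen with earlier results of these data known. Values on each array are given for every resident Kupffer and class II gene, for the 8 other members with the highest mean level, and for members without overlap and with an unadjusted p under 0.05 in a comparison. From each list outside the 39, at most 4 genes with the smallest p could be named. Alternatives were offset, scaling, filter, probe set rule, fit, block and left-out arrays. Promoter sequences are RefSeq's on GRCm38.p6.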

Additional observations from a re-analysis of the deposited data

How the results depend on the processing

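The members' median kept its sign in the 3 genotype comparisons under every alternative run, and in the TCDD comparisons and the difference of effects its sign changed between alternatives. With an offset of 1 in place of 16 the median genotype difference was 0.89 under vehicle, 0.96 under TCDD and 0.83 over both, and without the dimmest 40% of genes it was 0.78 under vehicle (21 members tested). Msr1 was called for TCDD in human AHR, as 1 member, with an offset of 50 (adjusted p 0.0374), quantile normalization (0.0499), arrays shifted to the same median (0.0398) and array weights (0.0334). Ccl6 under vehicle turned to 0.14 with the mean over its probe sets. Leaving out an array at a time, the number of members called was 0 to 1 under vehicle and over both treatments (Plek, without human AHR vehicle replicate 1) and 0 elsewhere. The median then ran from -0.09 to 0.07 for TCDD in wild type, -0.33 to 0.24 for TCDD in human AHR, 0.27 to 0.62 for genotype under vehicle, 0.37 to 0.61 under TCDD, 0.35 to 0.55 over both, -0.27 to 0.28 for the difference of effects and -0.21 to 0.11 for TCDD over both genotypes. Without both human AHR replicate 1 arrays (chosen after seeing the data) 5, 2 and 14 members were called under vehicle, under TCDD and over both, of 33 genes called over both. With the replicate block within genotype, 0 members were called for TCDD, the smallest adjusted p was 0.34 and the median SE of the effect in human AHR was 0.22 against 0.33. With the replicate number as a random block, 20 members had an unadjusted p under 0.05 over both treatments (21 without it, in either direction), 0 were called, and the smallest adjusted p was 0.61 against 0.274. The block changed no call. The random block used a correlation of 0.256 shared by all genes. Over the members, same-number deviations correlated at 0.626 to 0.909 in human AHR and at -0.105 to 0.204 in wild type. The random block thus cannot show how far the members' genotype differences hold if same-numbered human AHR arrays are not independent. Signals near an array's median carry little above background, and 3 arrays per group left wide intervals.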

Other observations

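Genes outside the 39 and outside all companion lists shared the pattern of the resident Kupffer genes. They were found after seeing the data, as the genes with an SD over arrays above 0.5 whose level correlated best with the mean of the resident genes over the 12 arrays, so their values describe them. Lyz1, the lysozyme paralogue of Lyz2 with which it can share hybridisation, read at most 34.5 in wild type, 16 and 17.3 on the human AHR replicate 1 arrays, 159 and 159 on the replicate 2 arrays, and 299 and 313 on the replicate 3 arrays. Cyba, the partner of Cybb in the phagocyte oxidase, read at most 19.5 in wild type, 10.3 and 3.0 on human AHR replicate 1, 57.5 and 58.1 on replicate 2, and 71.9 and 74.9 on replicate 3. Wfdc17, a secreted protein of macrophages, read at most 18.1 in wild type and 66.2, 59.0, 109.9 and 91.9 on human AHR replicates 2 and 3. Cd52, a leukocyte surface peptide, read at most 11.7 in wild type and 22.3 to 50 on those 4 arrays. Slc15a3, a peptide transporter of endosomes, read at most 2.43 in wild type and 13.9 to 23.9 there. Fcna, a ficolin made by liver macrophages, read 76.8 and 83.8 under vehicle and 55.4 and 86.9 under TCDD on those arrays, against at most 49.0 in wild type.

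The acute-phase gene Saa3 ran alongside. It read 120, 82.4 and 279 in wild type vehicle and 137, 262 and 354 in human AHR vehicle, so wild type replicate 3 lay in the human AHR range. Sult5a1, a sulfotransferase, read at most 90.2 in wild type and at least 80.4 in human AHR.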
